A study of Mus musculus with 30 samples.

Results

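The genes described here are the factors that start, extend and end protein synthesis and the aminoacyl-tRNA synthetases, as measured on nylon cDNA arrays of mouse brain. They were taken by name alone: probes with 1 gene symbol that begins with Eif1 to Eif6, Eef1 or Eef2, or that is Etf1, Gspt1, Gspt2 or the symbol of a synthetase, with the Eif2ak kinases left out. The rule gave 126 probes of 71 genes, out of 9663 probes of 7151 genes with 1 symbol and 16896 probes in all. It also took a few regulators that share these name stems, among them the eIF4E-binding proteins and the eEF2 kinase. By role the genes divide into 15 of start codon scanning, 11 subunits of eIF3, 11 of the eIF4 cap-binding group, 2 for eIF5A and eIF6, 6 of elongation, 2 of termination, 15 cytosolic synthetases and 9 mitochondrial synthetases. These roles follow the gene names, and a gene need not act at the step it is listed under.

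The study asked how loss of either cyclooxygenase, the enzymes that make prostanoids from arachidonic acid, changes the brain transcriptome. At 12 weeks of age, cerebral cortex and hippocampus were dissected from wild-type (WT) and homozygous null mice of a COX-1 line and of a COX-2 line, and from heterozygous mice of the COX-2 line, which makes 10 groups of 3 arrays. All mice had a mixed genetic background that includes C57BL/6. WT mice came from WT parents, whereas null mice came from null fathers and heterozygous mothers, so genotype and parentage cannot be told apart. The breeding of the heterozygous group was not described. The methods name 3 mice per group and also triplicate hybridisations of each sample. The labels number the arrays without naming mice, so p-values cover the spread between arrays, which may be technical in part. Probes of Ptgs1 and Ptgs2, the deleted genes, were not found by symbol and were not analysed here.

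Each value is the authors' Z score. By their methods it is the natural log intensity of a spot minus the mean of its array, divided by the SD of the array. In the scores each block of 8448 rows of an array has its own mean of 0 and SD of 1. The array mean named below is therefore that of a block. A difference of 1 is 1 SD of a block and not a fold change, and Z scores of different probes are not compared with each other. In COX-1 cortex the first 8448 probes held the same values in 5 of the 6 arrays and were left out, which left 49 probes of 37 of the genes there. A gene with several probes, as 28 of the 71 have, is given as their mean. After the study's methods, a gene met what is called here the z ratio rule with 3 things: a mean Z above 0 across both groups, a Z test P under 0.05, and a z ratio of more than 1.5 in either direction. The methods write the divisor of the z ratio as the SD of all genes on an array, which is 1 for these scores, and with it 0 of all genes were called in any of the 6 comparisons. The divisor used here is instead the SD that differences between group means have over the whole comparison, which departs from that formula, and with it a difference of 0.136 to 0.162 was needed to reach that limit. The limma model, with p-values adjusted over all genes with a mean Z above 0 unless stated, was run beside it. Over all arrays 35 of the 71 genes had a mean Z above 0, so about as many lay too low to be called. Of the region markers, Cux1 for cortex and Calb1, Tdo2 and Zbtb20 for hippocampus had a mean Z below 0 and did not check the dissections, while Snap25, Tubb3, Gap43 and Nefl of neurons were measured. In whole tissue, fewer cells of a type and less RNA per cell cannot be told apart.

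Translation begins when the eIF4 factors bind the cap of an mRNA and unwind its leader, and a small ribosomal subunit carrying eIF1, eIF1A, eIF2, eIF3 and eIF5 scans to the start codon. The eEF1 complex then delivers tRNAs that the synthetases have charged with their amino acids, until eRF1 and eRF3, encoded by Etf1 and Gspt1, release the finished chain. In neurons much of this machinery also works in dendrites, where local protein synthesis serves synaptic plasticity.

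Few of these genes differed between genotypes, and differences in the 6 comparisons with WT lay mostly within 0.2 of 0. By the z ratio rule 1 gene was called in each null comparison, none in heterozygous cortex and 3 in heterozygous hippocampus. The called genes were Eif4a1 in COX-1 null cortex, where 3.95% of all tested genes were called, Eif2a in COX-2 null cortex (4.02% of all), Eif3b in COX-1 null hippocampus (4.46% of all), Eif1ad in COX-2 null hippocampus (4% of all), and Hars, Eif3l and Wars in heterozygous hippocampus (6.27% of all). In heterozygous cortex 3.21% of all tested genes were called. With 36 of these genes tested outside COX-1 cortex and 14 within it, these counts lie near the background. By limma, Eif4a1 in COX-1 null cortex and Hars in heterozygous hippocampus passed an adjusted p of 0.05, against 0.05% and 1.78% of all tested genes.

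**Figure D1:**
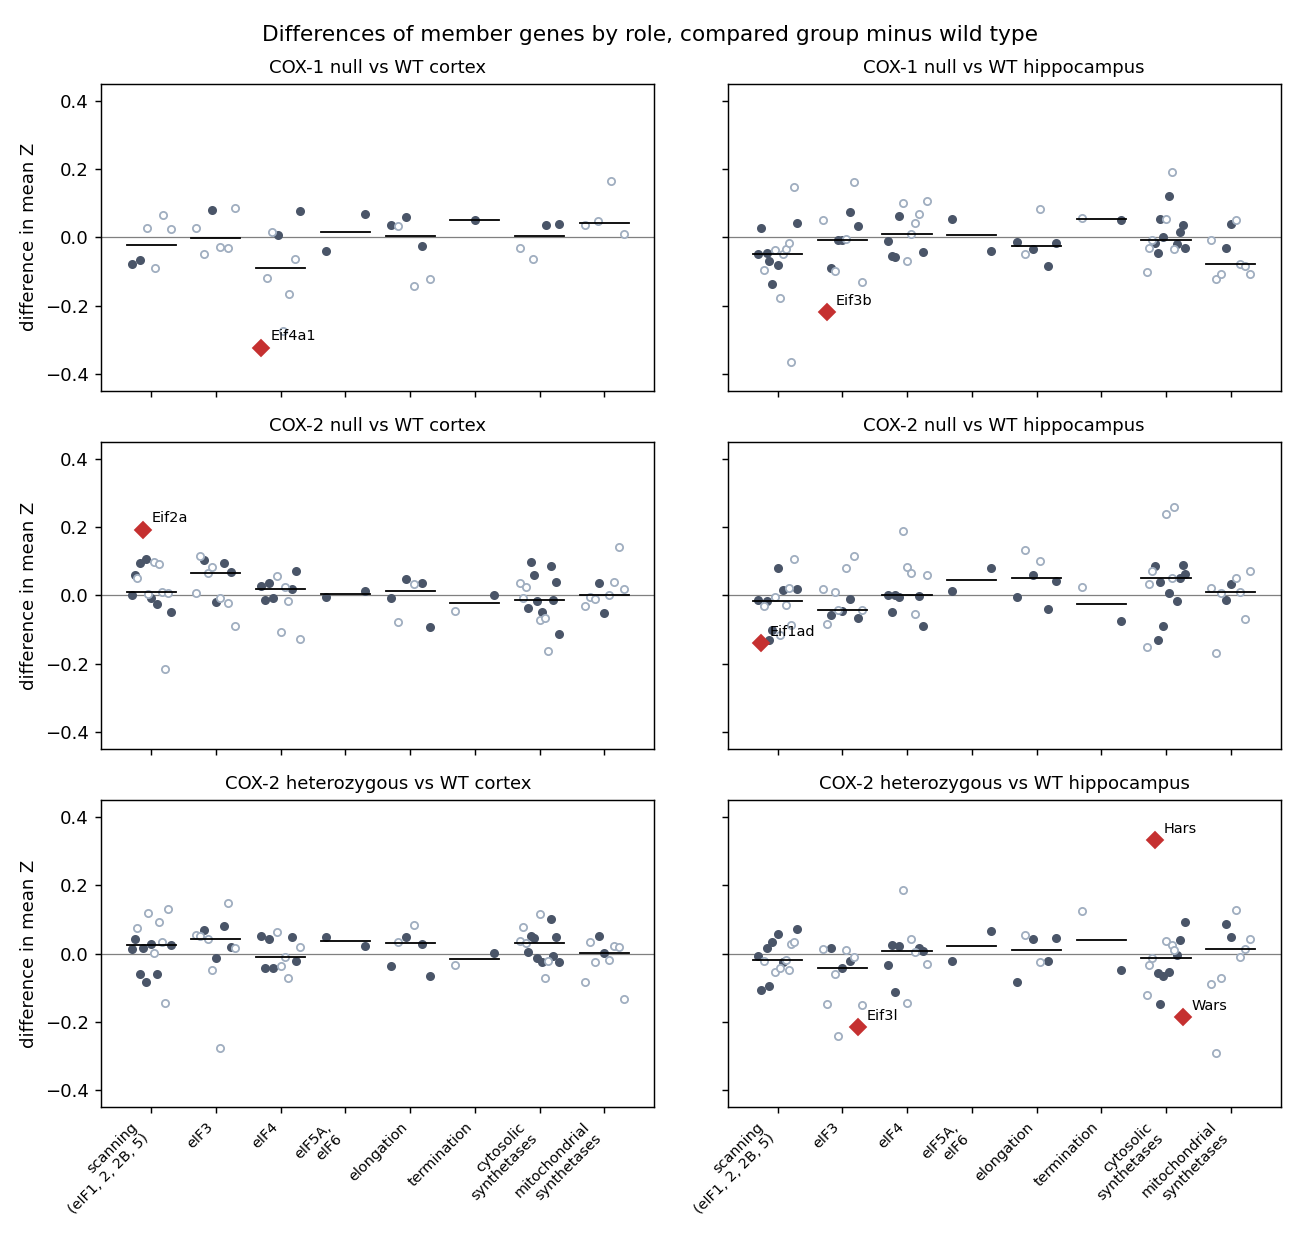
Difference in mean Z score (compared group minus WT of the same line and region, 3 arrays each) for each gene, by role along the horizontal axis, in the 6 comparisons. Filled circles are genes with a mean Z above 0, open circles genes below it, red diamonds genes that met the z ratio rule, and black lines the median of a role; medians lie close to 0 and the 7 diamonds fall in 4 of the roles.

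The roles differed little in their medians. In COX-1 null hippocampus 46 of the 71 genes were lower than in WT, with a median difference of -0.0174 against -0.00638 over all genes of the table. There, 12 of the 15 scanning genes were lower (median -0.0486) and so were 7 of the 9 mitochondrial synthetases (median -0.0778), most of which lay below the array mean. In heterozygous cortex the balance ran the other way, with 45 of 71 higher and a median of 0.0195 against 0.00854 over all genes. In both comparisons the median over all genes leaned the same way as that of the members. Cytosolic synthetases were higher in 11 of 15 cases in COX-2 null hippocampus (median 0.0510) and in 6 of 15 in COX-2 null cortex (median -0.0141). Genes whose 3 arrays did not overlap with the 3 WT arrays numbered 6 of 37 in COX-1 null cortex (18.2% of all genes), 18 of 71 in COX-2 null cortex (17.2%), 10 in COX-1 null hippocampus (19.9%), 11 in COX-2 null hippocampus (16.4%), 11 in heterozygous cortex (15.7%) and 20 in heterozygous hippocampus (30%). These shares lie near those of all genes, COX-2 null cortex being the one furthest above.

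Eif4a1 encodes the DEAD-box helicase of eIF4F that unwinds the mRNA leader, and it had the z ratio furthest from 0 among the genes with a mean Z above 0. In COX-1 cortex its values come from 1 probe, 15924. The WT arrays read 1.059, 1.178 and 1.13 in Z score, and the null arrays read 0.774, 0.914 and 0.709. The groups did not overlap, and the null mean was lower by 0.323 (95% interval of the difference -0.429 to -0.218, z ratio -3.28, limma adjusted p = 0.0226).

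Across the whole study it was the COX-1 WT cortex that stood apart on this probe. Its 3 arrays lay above all 27 other arrays, which reached at most 0.925. COX-2 WT cortex read 0.773, 0.798 and 0.783, close to the COX-1 null arrays, and was below COX-1 WT cortex by 0.338 (SE 0.0496, limma adjusted p = 0.00511, where 3.04% of all tested genes passed). Both differences share the COX-1 WT cortex arrays. With the WT arrays of both lines as control, the COX-1 null difference was -0.155, and neither the rule nor limma called it. Fcer1g, a microglial Fc receptor chain, was also lower in COX-1 null cortex, by 0.396, and in COX-2 WT against COX-1 WT cortex, by 0.573; the 4 microglial markers had a median difference of -0.00061 in COX-1 null cortex, and their part in the Eif4a1 difference was not tested. The limma call was lost in 4 of the 6 fits that left out an array, COX-1 WT replicates 2 and 3 and COX-1 null replicates 1 and 3, with differences from -0.381 to -0.278.

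The 3 Eif4a1 probes did not run together. Over the 24 arrays outside COX-1 cortex, probe 15924 correlated with probe 6009 at r = -0.46 and with probe 4600 at r = -0.25, while the latter pair had r = 0.22, as a description of probes that share arrays. In heterozygous hippocampus probe 15924 read 0.551, 0.473 and 0.538, below all 27 other arrays, against 0.716, 0.767 and 0.732 in COX-2 WT hippocampus. The probe fell by 0.218 there (limma adjusted p over probes = 0.0361, where 2.82% of probes passed), a limma call lost in each of the 6 fits without 1 array. By the z ratio rule it was called too (z ratio -1.82, where 6.21% of probes were), and that call was kept in all 6. In the same arrays probe 6009 read 0.72, 0.752 and 0.848 against 0.818, 0.716 and 0.759, and the groups overlapped. Probe 4600 read 0.379, 0.291 and 0.227 against 0.18, 0.144 and 0.241, again with overlap. Averaged over its probes, Eif4a1 was therefore not called in heterozygous hippocampus. The paralogue Eif4a2 had no probe with its symbol alone.

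**Figure D2:**
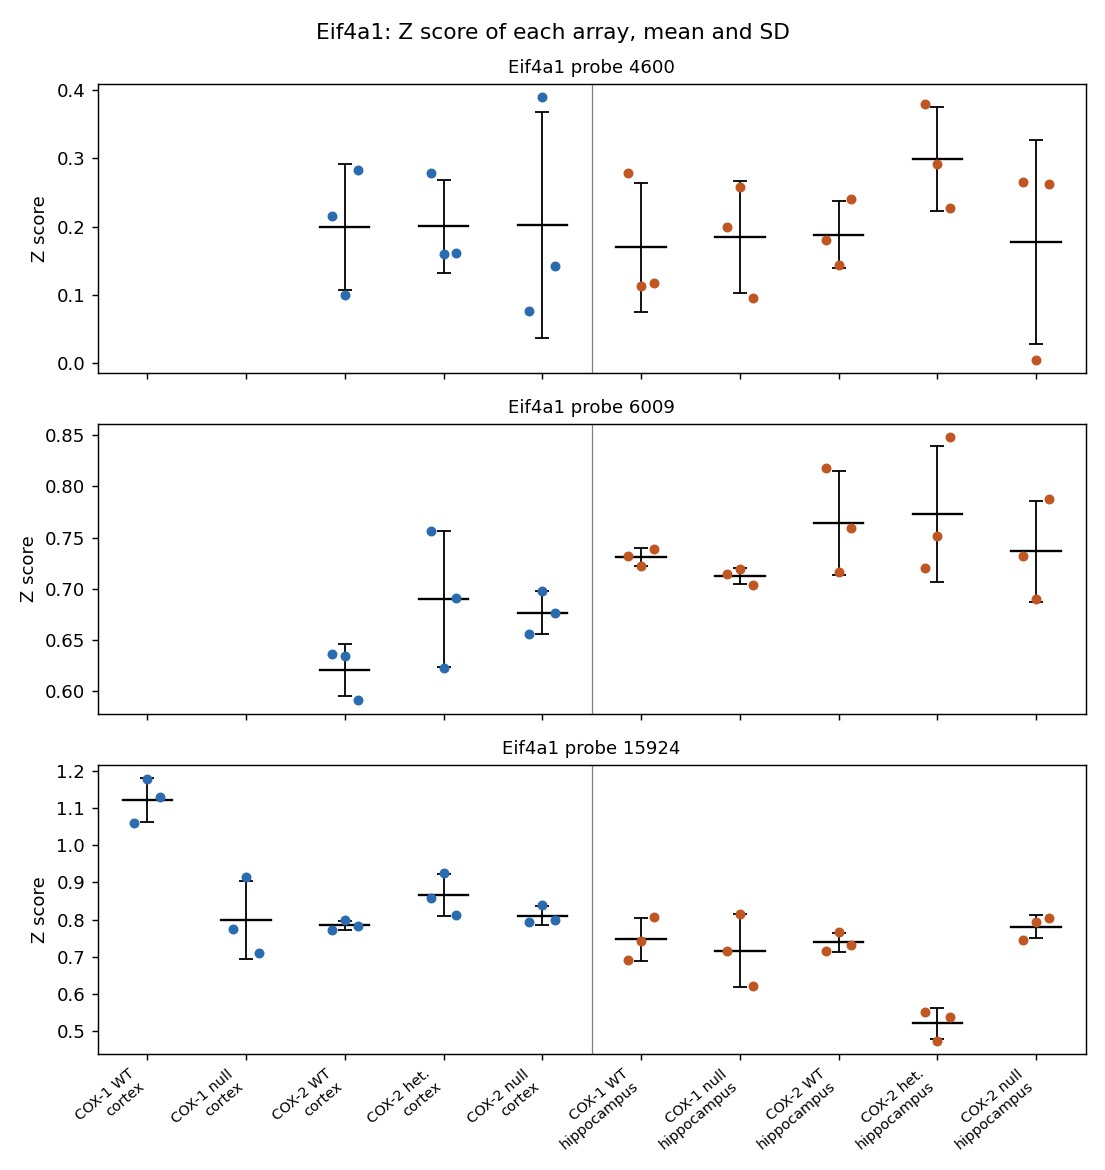
Z score of each array (points), group mean (bar) and SD (whiskers, n = 3 arrays) for the 3 Eif4a1 probes in the 10 groups, cortex in blue and hippocampus in orange; COX-1 cortex is not shown for the 2 probes whose values were copied there. On probe 15924 COX-1 WT cortex lies above all other arrays (1.059 to 1.178) and heterozygous hippocampus below all others (0.473 to 0.551).

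In COX-1 null hippocampus the called gene was Eif3b, a core scaffold subunit of eIF3. The WT arrays read 0.284, 0.198 and 0.148, and the null arrays 0.033, -0.079 and 0.019. The groups did not overlap, and Eif3b was lower by 0.219 (SE 0.0473, z ratio -2.07), which met the z ratio rule but not limma (adjusted p = 0.0740). The null arrays averaged below 0, so Eif3b passed the filter on mean Z only through the WT arrays. No member gene passed limma in this comparison, where 3 of 36 had an unadjusted p under 0.05 against 16% of all tested genes; 0.117% of all passed the adjusted threshold. With the WT arrays of both lines as control Eif3b differed by -0.117 and was not called.

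Probe by probe, 5 probes were lower in COX-1 null hippocampus by the z ratio rule and none higher, where 1.79% of all tested probes were called lower. They belong to Eif3b, Eif4b, Eif4e, Eif1ax and Eef1g. The Eif4b and Eif1ax probes had null means of -0.034 and -0.09 and passed the filter on mean Z only through the WT arrays. Their calls could therefore only be lower, which limits the reading of this count. The Eif4e probe 12552, for the cap-binding protein itself, read 0.29, 0.223 and 0.245 in WT and 0.104, -0.025 and 0.144 in null mice. The Eif4b probe 10925, for the cofactor of the eIF4A helicase, read 0.324, 0.191 and 0.153 in WT and -0.031, -0.191 and 0.12 in null mice. On both probes, and on the Eif1ax probe 12267, the COX-1 WT hippocampus lay above all 27 other arrays, which reached at most 0.144, 0.12 and -0.022. None of the 5 passed limma, and 15 of the 68 member probes tested had an unadjusted p under 0.05, against 16.4% of all. With the WT arrays of both lines as control the Eif3b probe kept its call (-0.181), and the others lost theirs, at -0.0653 for Eif4b, -0.00851 for Eif4e, -0.0784 for Eif1ax and -0.0835 for Eef1g. In fits without 1 of the 6 arrays the Eif3b probe kept its call each time, while the Eif4b probe lost it in 2, those of Eif4e and Eef1g in 4 and that of Eif1ax in 5.

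The COX-1 WT hippocampus arrays also enter the comparison between the lines. In COX-2 WT against COX-1 WT hippocampus 4 genes were lower by limma and none higher, where 6.89% of all tested genes passed. Eif4e, Eif3b, Eif6, a factor that keeps ribosomal subunits apart, and Lars, the leucyl-tRNA synthetase, fell by 0.160 (SE 0.0352, adjusted p = 0.0166), 0.204 (SE 0.0473, adjusted p = 0.0210), 0.132 (SE 0.0357, adjusted p = 0.0390) and 0.204 (SE 0.0547, adjusted p = 0.0378). For Lars the COX-1 WT arrays read 0.257, 0.28 and 0.448 and the COX-1 null arrays 0.322, 0.371 and 0.292, while all 9 COX-2 line hippocampus arrays lay at or below 0.192. The COX-1 WT and null arrays of Lars thus overlapped, and both lay above the COX-2 line. The COX-1 null arrays lay above COX-2 WT for Eif4e (0.611 to 0.685 against 0.512 to 0.565) and Eif6 (0.294 to 0.363 against 0.194 to 0.267) too, whereas for Eif3b they overlapped. Eif6 was at 0.341, 0.359 and 0.413 in COX-1 WT and at 0.194, 0.256 and 0.267 in COX-2 WT hippocampus, without overlap. The Eif6 call was lost in all 6 fits without 1 array, the Lars call in 5, the Eif3b call in 3 and the Eif4e call in 2. All 4 calls were lost with the compared groups fitted alone, and with only probes above the array mean averaged Eif4e differed by -0.0403 and Eif3b by -0.103, neither called. The collagen gene Col3a1 of vascular and meningeal cells was higher in COX-2 WT by 0.114, and its part in these differences was not tested. As a single gene of its marker list it does not measure those cells.

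**Figure D3:**
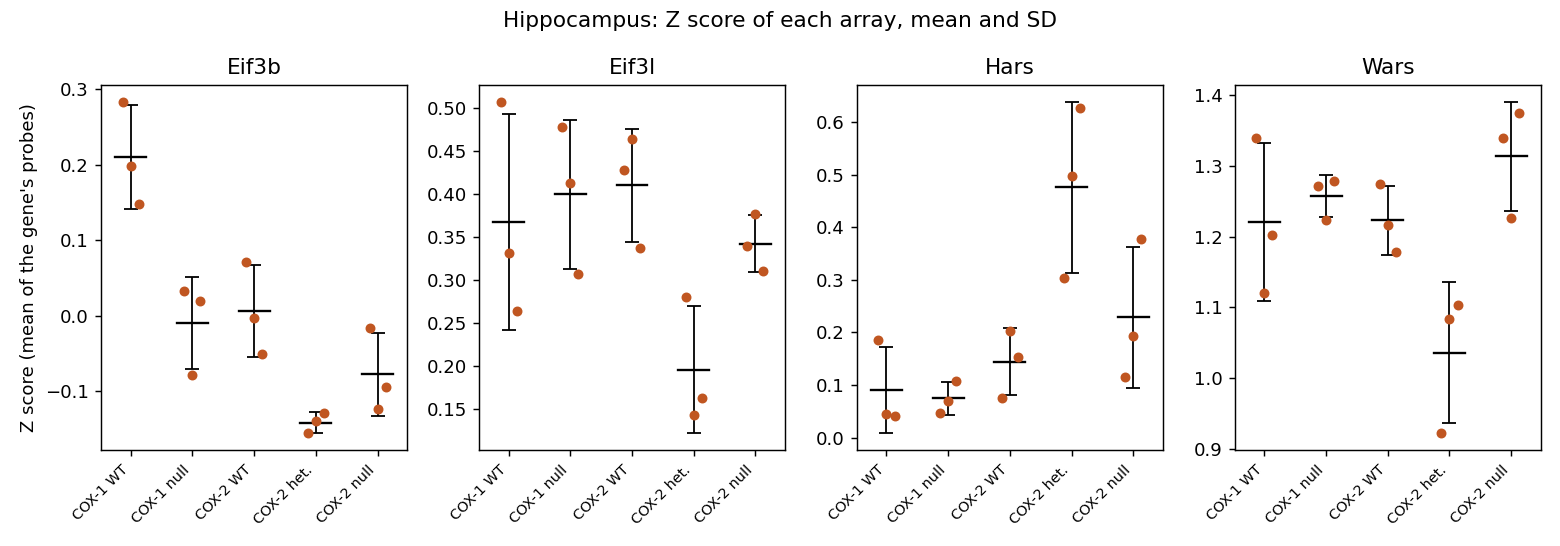
Z score of each hippocampus array (points), group mean (bar) and SD (whiskers, n = 3 arrays) for Eif3b, Eif3l, Hars and Wars in the 5 genotype groups. Eif3b is highest in COX-1 WT (0.148 to 0.284), and the COX-2 heterozygous arrays lie apart from COX-2 WT for all 4 genes, above it for Hars and below it for the others.

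In COX-2 null mice the called genes were both listed in the scanning group, which follows gene names and does not show a part in scanning. Eif2a, an initiator tRNA-binding factor separate from the eIF2 complex, read 0.482, 0.325 and 0.296 in COX-2 WT cortex and 0.505, 0.536 and 0.64 in null cortex. The groups did not overlap, and the difference was 0.193 (SE 0.119, z ratio 2.13), with a limma adjusted p of 0.652. The call was lost without COX-2 WT replicate 2 or 3. In heterozygous cortex the same gene spanned 0.158 to 0.722, wider than the WT and null groups together. No member gene passed limma in COX-2 null cortex (2 of 36 with an unadjusted p under 0.05, against 8.84% of all), and none of the 3361 genes tested did. Of the eIF3 subunits, 7 of 11 were higher in COX-2 null cortex, with a median of 0.0661 against 0.00365 over all genes. Eif3b, Eif3c, Eif3d and Eif3i lay wholly above the WT arrays, where 9.8% of all genes did so, and none met the rule as a gene. Of these, Eif3b and Eif3d had a mean Z below 0 as genes and were not open to a call. Probe by probe the calls were Eif2a and the Eif3b probe 5965, both higher, where 2.69% of all tested probes were called higher. That Eif3b probe read 0.189, 0.294 and 0.234 against 0.084, 0.118 and 0.022 in WT (difference 0.164, z ratio 1.62), a call lost without WT replicate 3 or null replicate 2 and with a running median over rows subtracted (0.0785).

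Eif1ad, an eIF1A-like protein, read 0.05, 0.221 and 0.11 in COX-2 WT hippocampus and -0.008, -0.025 and -0.003 in null hippocampus, without overlap. It differed by -0.139 (SE 0.0457, z ratio -1.51, limma adjusted p = 0.291) and so lay just past the limit. With all null arrays below 0, Eif1ad passed the filter on mean Z only through the WT arrays. The call was lost without either of 2 WT arrays (replicates 2 and 3) or either of 2 null arrays (replicates 1 and 2), and also after quantile normalization, with a running median over rows subtracted and with both lines' WT arrays as control. Probe by probe, Eif5, the GTPase activator of the scanning complex, and Eif6 were called higher here, where 2.06% of all tested probes were; the Eif5 call was lost in 5 of 6 fits without 1 array and the Eif6 call in 4, and both were lost with both lines' WT arrays as control (0.0984 and 0.0719). The Eif5 probe 7290 read 2.47, 2.5 and 2.48 in COX-2 WT, below all 21 other arrays that hold it, and 2.56, 2.57 and 2.81 in null mice. The Eif6 probe 7744 had a WT mean of -0.0207 and passed the filter only through the null arrays (mean 0.155), so its call could only be higher. By limma no member gene passed (3 of 36 with an unadjusted p under 0.05, against 12.1% of all). Glul of astrocytes was higher and Enpp6 of oligodendrocytes lower in these arrays, by 0.217 and 0.274, and their part in the result was not tested. Both are single genes of their marker lists and not measures of a cell type.

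Heterozygous COX-2 hippocampus held the most calls. Hars, the histidyl-tRNA synthetase, read 0.076, 0.202 and 0.154 in COX-2 WT and 0.303, 0.498 and 0.627 in heterozygous mice, without overlap. It rose by 0.332 (SE 0.0778, z ratio 3.07, limma adjusted p = 0.0444). Null mice of the line read 0.116, 0.194 and 0.377, between the 2 groups and overlapping both. The limma call was lost in 5 of the 6 fits that left out an array, all but the one without heterozygous replicate 1, while the z ratio rule kept it in 5, all but the one without heterozygous replicate 2. It was also lost after quantile normalization (adjusted p = 0.0530), without the filter (0.0549), in a fit of these 6 arrays (0.0582) and after subtraction of a running median over rows (0.136), and could not be made at a mean Z above 0.5. Hars has 1 probe, and its cortex arrays of the COX-2 line, 0.153 to 0.325, showed no such separation by genotype.

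Wars, the tryptophanyl-tRNA synthetase, went the other way. Its heterozygous arrays read 0.922, 1.08 and 1.1, against 1.27, 1.22 and 1.18 in WT, and lay below all 21 other arrays with values. The difference was -0.186 (SE 0.0612, z ratio -1.72, limma adjusted p = 0.124). Eif3l, a peripheral eIF3 subunit, read 0.28, 0.144 and 0.163 against 0.428, 0.464 and 0.337, a difference of -0.215 (SE 0.0630, z ratio -1.98, limma adjusted p = 0.0939). Both met the z ratio rule without passing limma. The Wars call was lost without WT replicate 1 or heterozygous replicate 1, and with the WT arrays of both lines as control. With that control Eif3l kept its call as a gene, but its probe 183 lost it. Both calls were lost with a running median over rows subtracted. The eIF3 subunits as a role had 8 of 11 lower and a median of -0.0408 against -0.00607 over all genes. Of them Eif3b, Eif3d, Eif3e, Eif3f, Eif3l and Eif3m lay wholly below the WT arrays, 6 of 11, where 15.7% of all genes of the table did so. Of these, Eif3b, Eif3d, Eif3e and Eif3m had a mean Z below 0 as genes and were not open to a call, Eif3f differed by -0.0408, and Eif3l was called. Probe by probe 6 met the rule, where 6.21% of all tested probes did: those of Hars and Eif4enif1 higher, and those of Wars, Eif3l, Eif4a1 (15924) and Eif3b (5965) lower. The Eif3b probe read 0.069, 0.135 and 0.138 against 0.375, 0.269 and 0.269 in WT (difference -0.190, z ratio -1.59), a call lost without WT replicate 1 or heterozygous replicate 1. Neuronal markers had a median difference of -0.105 in these arrays, with 3 of 4 lower, and their part in the result was not tested.

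In heterozygous cortex no gene of the set was called by the rule, and by limma 1 of 36 had an unadjusted p under 0.05, against 7.02% of all. Probe by probe 1 was called, where 1.88% of all tested probes were called lower. It was 6462 of Eif1b, a close relative of the start codon selection factor eIF1, at 2.13, 2.05 and 2.02 against 2.28, 2.31 and 2.2 in WT. The null cortex arrays of that probe, 2.27, 2.25 and 2.23, overlapped the WT arrays.

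Whether the null effect differed between the lines was tested directly, with p-values adjusted over all genes, also those with a mean Z below 0. In cortex the difference between effects was largest for Eif4a1, at 0.349 (COX-2 minus COX-1 effect, SE 0.0701, limma adjusted p = 0.0756), and none of the 37 genes passed, with 3 at an unadjusted p under 0.05, against 0.0475% and 13% of all genes. In hippocampus none of 71 passed, with 8 at an unadjusted p under 0.05 against 7.34% of all genes, and 0 of all 7151 genes passed. Eif2s3x, the X-linked eIF2 gamma subunit, had the smallest p there, with a difference of 0.278 (95% interval 0.0629 to 0.493, limma adjusted p = 0.565).

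Between the regions, 5 of the 36 genes tested differed by limma in the 18 arrays of the COX-2 line, where 12.1% of all tested genes did, so that the count lies near the background. Eef1a1, the elongation factor that delivers charged tRNAs, Eif1b, and Kars and Iars, the lysyl- and isoleucyl-tRNA synthetases, were higher in hippocampus, and Wars was lower.

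Eef1a1 ran from 0.604 to 0.685 in the 9 cortex arrays (median 0.639) and from 0.676 to 0.857 in the 9 hippocampus arrays (median 0.78), which overlap at 1 array each. It rose by 0.130 (SE 0.0242, limma adjusted p = 0.00309). In the COX-1 line the 6 cortex arrays ran from 0.511 to 0.66 and the 6 hippocampus arrays from 0.759 to 0.862, with no overlap and a difference of 0.203 (SE 0.0329, adjusted p = 0.000666), in a comparison where 4 of the 14 genes tested passed and 33.3% of all tested genes did. The COX-1 line comparison was added after the data were seen. The 2 of its 3 probes with a mean Z above 0 each passed in both lines, with COX-2 line differences of 0.176 and 0.177, and correlated at r = 0.81 over 24 arrays. Of the genes called in the COX-2 line, Eef1a1 was the 1 also called in the COX-1 line, where Kars, Wars and Eif1b had no cortex values and Iars differed by 0.0591 (adjusted p = 0.207). Its neuronal paralogue Eef1a2 had no probe with its symbol alone, nor had Gspt2 and Eif4g1. In the COX-1 line Eif1a, the scanning factor eIF1A, was also higher in hippocampus, at 1.896 to 1.999 in 6 arrays against 1.802 to 1.94 in cortex (by 0.0756, limma adjusted p = 0.0445).

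Kars ran from 0.072 to 0.199 in cortex (median 0.132) and from 0.099 to 0.388 in hippocampus (median 0.245). It rose by 0.125 (SE 0.0271, limma adjusted p = 0.00817). By genotype the difference was 0.196 in WT and 0.175 in null mice but 0.00233 in heterozygous mice, whose hippocampus read 0.146 ± 0.0409 against 0.144 ± 0.0268 in cortex (SD, n = 3). A difference between the genotypes was not tested.

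Wars ran from 1.245 to 1.524 in cortex (median 1.394) and from 0.922 to 1.374 in hippocampus (median 1.217), and it fell by 0.194 (SE 0.0382, limma adjusted p = 0.00436). The heterozygous mice had a difference of -0.368, against -0.133 in WT and -0.0813 in null mice. Eif1b rose by 0.145 (SE 0.0347, adjusted p = 0.0145), with 0.819 to 1.066 in cortex and 0.908 to 1.168 in hippocampus. By genotype its difference was 0.156 in WT, 0.232 in heterozygous and 0.0457 in null mice. Eef1a1, Kars, Wars and Eif1b kept their calls in all 18 fits without 1 array. Eif1b lost its call when only probes above the array mean were averaged (0.118, adjusted p = 0.0721), and neither of its probes was called alone.

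Iars ran from 0.229 to 0.437 in cortex (median 0.332) and from 0.317 to 0.599 in hippocampus (median 0.427), with much overlap. It rose by 0.102 (SE 0.0297, limma adjusted p = 0.0362), but lost the call in 12 of 18 fits without 1 array. Separately, it lost the call after quantile normalization (adjusted p = 0.0575) and with a running median over rows subtracted (0.110), and could not be called at a mean Z above 0.5. Its difference was 0.214 in WT and 0.106 in heterozygous mice but -0.0147 in null mice. Among markers, Aldoc of astrocytes was higher in hippocampus by 0.145, Col1a1 higher by 0.0835 and Gap43 of neurons lower by 0.107, and their part in the region differences was not tested. Each is a single gene of its marker list and not a measure of its cell type.

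**Figure D4:**
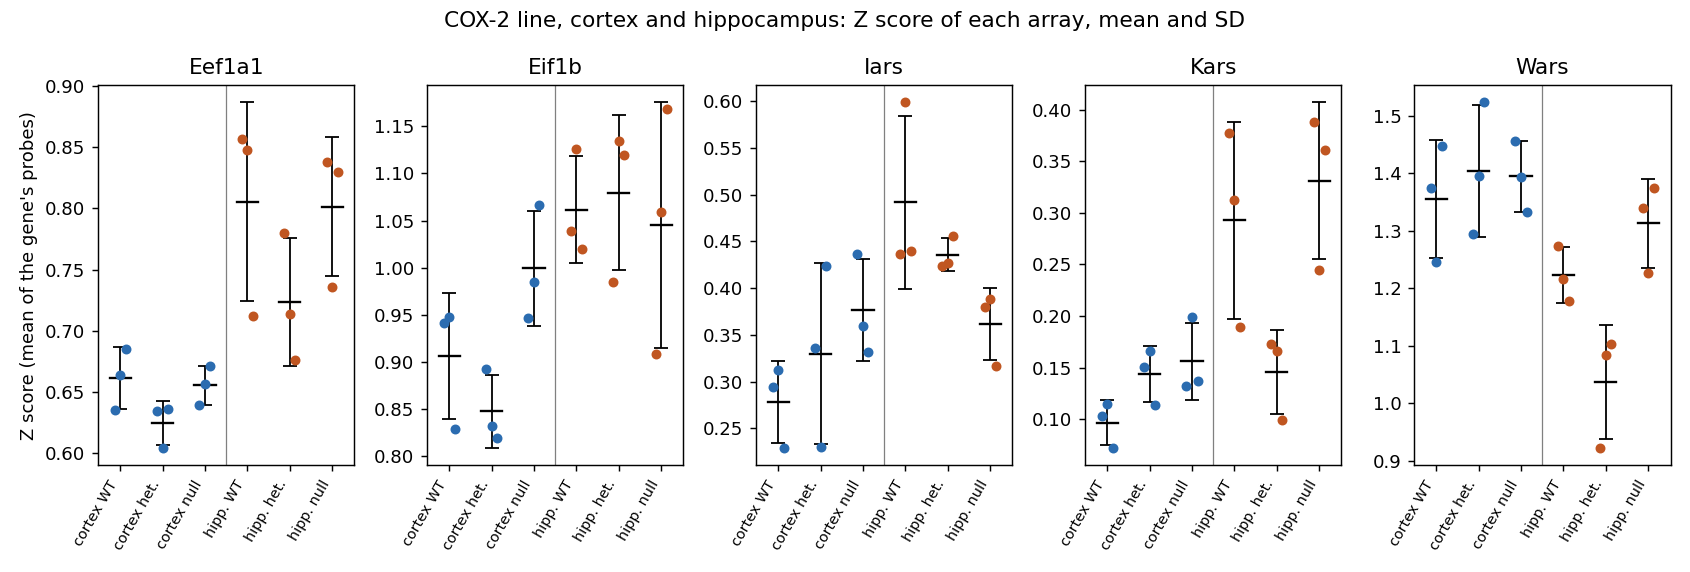
Z score of each COX-2 line array (points), group mean (bar) and SD (whiskers, n = 3 arrays) for the 5 genes that differed between cortex (blue) and hippocampus (orange); each panel has its own axis. Eef1a1 hippocampus arrays lie between 0.676 and 0.857, almost wholly above the cortex arrays, whereas the heterozygous hippocampus arrays of Kars lie at the cortex level.

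Probe by probe, 11 of 61 tested probes differed between the regions of the COX-2 line, where 12.8% of all tested probes did. Eif4a1 probes passed in opposite directions, 6009 higher in hippocampus by 0.0958 (SE 0.0261, limma adjusted p = 0.0251) and 15924 lower by 0.140 (SE 0.0219, adjusted p = 0.000994). By genotype, 15924 averaged 0.785 in cortex and 0.738 in hippocampus in WT, and 0.810 and 0.781 in null mice. The gap was widest in heterozygous mice, at 0.865 in cortex and 0.521 in hippocampus. A difference between the genotypes was not tested. In the COX-1 line 15924 fell by 0.229 (SE 0.0450, adjusted p = 0.00255), the difference being -0.376 in WT and -0.0823 in null mice. Gspt1 probe 12000 was lower in hippocampus in both lines, by 0.109 and 0.126, where 30.6% of all tested probes passed in the COX-1 line. As a gene Gspt1, which had other probes in the COX-2 line, fell by 0.0730 in the COX-1 line (adjusted p = 0.0441).

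The synthetase promoters were searched because several synthetases share one known control, the amino acid response through ATF4 and its C/EBP partners. RefSeq windows from 250 bases before to 50 after the annotated start (GRCm38.p6) matched 51 of the 71 genes. The core of the composite element that these factors bind, TGATGCAA on either strand, lay in the windows of 3 of the 51 genes, all synthetases, and in 1.03% of all 27025 genes with a window. The sites are shown to set a region gene, Iars, beside Tars and Yars, the threonyl- and tyrosyl-tRNA synthetases. Each line gives 30 bases of the gene's strand, with the match in capitals (on Iars and Tars it reads as the reverse complement).
Iars: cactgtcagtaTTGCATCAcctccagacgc
Tars: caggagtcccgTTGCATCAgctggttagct
Yars: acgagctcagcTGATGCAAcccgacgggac

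These stretches lie at chr13:49682126-49682155 (plus strand), chr15:11399655-11399684 (minus strand) and chr4:129189895-129189924 (plus strand). Counted from the annotated start, the first base of the match is at 8 in Iars, -15 in Tars and 4 in Yars. The 3 genes did not move together: between regions Iars differed by 0.102, Tars by -0.00158 (SE 0.0242) and Yars by -0.00932 (SE 0.0320) in the COX-2 line. Against WT, Tars differed by -0.0141 to 0.0520 over the 6 comparisons, and Yars by -0.114 to 0.0925 over the 5 in which it has values. The lowest limma adjusted p of either gene in these comparisons was 0.374.

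The E-box CACGTG, a motif of bHLH factors such as MYC and CLOCK that reads the same on both strands, lay in the windows of 12 of the 51 genes and in 8.09% of all genes. Among the 12 are Eif4a1, Eif4e, Eif1b and Iars, each called in a comparison above, and a site before the start of each is shown for that reason, with the motif in capitals (for Eif4e the nearer of its 2 sites).
Eif4a1: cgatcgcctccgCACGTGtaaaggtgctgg
Eif4e: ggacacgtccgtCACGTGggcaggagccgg
Eif1b: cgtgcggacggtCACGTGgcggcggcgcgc
Iars: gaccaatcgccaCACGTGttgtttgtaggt

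They lie at chr11:69672595-69672624 (minus strand), chr3:138527192-138527221 (plus strand), chr9:120492570-120492599 (plus strand) and chr13:49682049-49682078 (plus strand), and the motif begins at -189, -64, -24 and -69 from the start. A match is a description of these letters and not a bound site, and the 4 genes were not all called in the same comparison. Others of the 12, such as Tars and Eif5a, were not called. Called genes such as Eif3b, Hars and Wars are not among the 12, and Hars and Wars had no window. A link between the motif and the calls was not tested.

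Probes of 1 gene often read differently, which limits each gene mean. Over the 24 arrays outside COX-1 cortex the 109 pairs of probes in 28 genes had a median r of 0.04, and the 43 pairs in which both probes lay above the array mean had a median r of 0.18, with 28 above 0. Eef1g, the gamma subunit of the eEF1 complex, has 7 probes. Of these, 6 correlated positively with each other, and probe 16312 correlated negatively with 5 of those 6, down to r = -0.56 with probe 12261. Probe 16312 was lower in hippocampus in both lines, by 0.0813 (limma adjusted p = 0.0274) and 0.125 (adjusted p = 0.0231). The size was uneven by genotype. In cortex and hippocampus the COX-2 line averaged 0.185 and 0.120 in WT, 0.248 and 0.0813 in heterozygous and 0.199 and 0.187 in null mice. The COX-1 line averaged 0.286 and 0.0983 in WT and 0.157 and 0.0947 in null mice. The Eef1g gene mean was not called in any comparison.

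**Figure D5:**
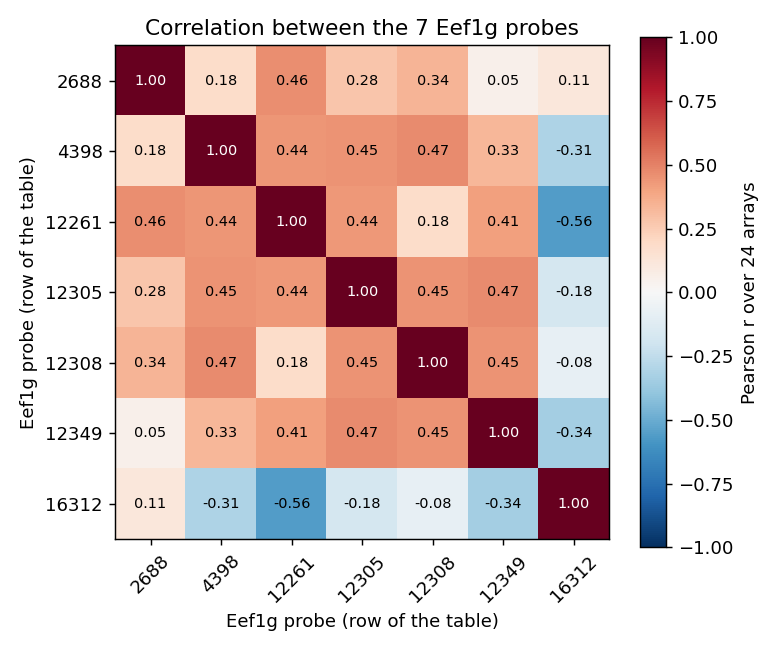
Pearson correlation of Z scores between the 7 Eef1g probes (rows of the table) over the 24 arrays outside COX-1 cortex. Probe 16312 has r from -0.56 to 0.11 with the others, which correlate positively among themselves.

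Other genes of translation were counted from lists of partners and regulators. Of 15 measured genes of the eIF2 alpha kinases and the integrated stress response, Atf4, Asns and Trib3 among them, 0 were called by the rule or by limma in any comparison. Of 16 genes of mTORC1 and mRNA-binding control, Mtor, the kinase that drives cap-dependent translation, was called most often. In COX-2 heterozygous hippocampus it rose by 0.464 (z ratio 4.29, limma adjusted p = 0.00807), and by the rule alone it differed by -0.174 in heterozygous cortex and by -0.165 in COX-2 null cortex. In the same list Pabpc1, the poly(A)-binding protein, differed by -0.156 in COX-2 null cortex, and Dhps, which modifies eIF5A, by -0.143 in COX-2 null hippocampus, both by the rule. Of 6 mitochondrial translation factors Tufm was higher by the rule in COX-2 null cortex, by 0.189. Of 5 genes of the phenylalanyl-tRNA synthetase and its partners, Farsa, the alpha subunit, was lower in COX-1 null hippocampus by 0.219 (rule), and both Farsa and Farsb were lower in COX-2 WT than in COX-1 WT hippocampus, by 0.334 and 0.283 (limma adjusted p = 0.0165 for each). Of all tested genes the rule called 4.02% in COX-2 null cortex, 4% in COX-2 null hippocampus and 4.46% in COX-1 null hippocampus. In heterozygous mice it called 3.21% in cortex and 6.27% in hippocampus. By limma 1.78% passed in heterozygous hippocampus and 6.89% between the WT lines in hippocampus. Single calls in such lists are to be read against these shares.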

How the data were processed

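RNA of 30 samples (10 groups of 3) was reverse transcribed with radiolabelled dCTP and hybridised to nylon cDNA membranes. Per the study's methods the authors turned phosphoimager intensities into Z scores per array, and the deposited score table was used as it stands. Each block of 8448 rows has its own mean of 0, array medians lie between -0.0721 and -0.0419, and replicate arrays correlated at r = 0.984 to 0.993 over the second block. Gene names come from the platform annotation, 436 probes with several symbols and 6797 with none being left out of gene means. Depth does not apply to arrays, and their number limits the precision; the lowest p that 3 arrays against 3 allow in exact permutation is 0.1.

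The z ratio rule, with a divisor other than the one in the study's formula, and limma 3.58.1 (R 4.3.3, data.table (1.17.8); group means, empirical Bayes moderation, Benjamini-Hochberg adjustment over genes with a mean Z above 0) were computed on all genes. For the difference between the null effects of the lines, the adjustment was instead over all genes, 4209 in cortex and 7151 in hippocampus. Genotype and line comparisons were fitted to the 15 arrays of a region (COX-1 cortex on the second block), region comparisons to the 18 or 12 arrays of a line. The fits were tested on simulated data. Named were members meeting the rule or passing limma, each Eif4a1 probe, paralogue pairs, members whose probes pass in opposite directions, and called genes of the partner lists; other genes were named after their values were seen. The members and lists were chosen with earlier results of these data known. Alternatives were centring, quantile normalization, filters, probes in place of genes, other controls, a replicate block, other array sets and leaving out each array. Sequences are from RefSeq, and figures were drawn with matplotlib in Python.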

Additional observations from a re-analysis of the deposited data

How the results depend on the processing

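No result changed direction. By the z ratio rule the number of member genes was 1 in each null comparison, 0 in heterozygous cortex and 3 in heterozygous hippocampus. With the SD of an array as divisor it was 0 in all 6. Without the filter on mean Z it was 2 (COX-1 null cortex), 3 (COX-2 null cortex), 4 (COX-1 null hippocampus), 6 (COX-2 null hippocampus), 2 (heterozygous cortex) and 6 (heterozygous hippocampus). With a mean Z above 0.5 it was 0 in COX-2 null cortex and both null hippocampus comparisons and 1 in heterozygous hippocampus. With probes kept apart the genes with a called probe numbered 2, 5, 2, 1 and 6 for COX-2 null cortex, COX-1 null hippocampus, COX-2 null hippocampus, heterozygous cortex and heterozygous hippocampus, and 2, 5, 2, 2 and 6 when only probes above background were averaged. With the WT arrays of both lines as control it was 0 in COX-1 null cortex, COX-2 null cortex and COX-1 null hippocampus and 2 in COX-2 null hippocampus; Eif2a, the gene called in COX-2 null cortex, has no COX-1 cortex values and could not be fitted there. The SD of differences within each block of rows, with probes apart, gave 4 in COX-1 null hippocampus and 1 in heterozygous cortex, quantile normalization 0 in COX-2 null hippocampus, and a running median over rows 2 there and 1 in heterozygous hippocampus. By limma, COX-1 null cortex (1) fell to 0 with both WT groups, with the compared groups alone and with the running median. COX-1 null hippocampus (0) gave 2 without the filter, COX-2 null hippocampus (0) gave 2 with both WT groups, and the cortex difference between lines (0) gave 1 from probes above background. Heterozygous hippocampus (1) gave 0 after quantile normalization, above a mean Z of 0.5 and with the compared groups alone, 2 by probe and from probes above background, and 6 with both WT groups. The WT lines in hippocampus (4) gave 11 without the filter, 1 above 0.5, 2 by probe and from probes above background, and 0 with the compared groups alone, and the regions (5) gave 3 above 0.5 and 9 by probe. Leaving out 1 array, the rule gave 1 to 1 in COX-1 null cortex and hippocampus, 0 to 3 in COX-2 null cortex and hippocampus, 0 to 0 in heterozygous cortex and 2 to 4 in heterozygous hippocampus. Limma gave 0 to 1 in COX-1 null cortex, heterozygous hippocampus and the cortex difference between lines, 1 to 1 and 0 to 2 for the WT lines in cortex and hippocampus, 4 to 5 for the regions, and 0 to 0 in the other comparisons. Replicate numbers did not pair the arrays (correlations of same-numbered arrays from -0.126 to 0.184), and with the replicate number as a block heterozygous hippocampus gave 2 by limma and no other count of members moved. The cause of these changes was not tested. The divisor, the running median, the averaging of probes above background and the COX-1 line regions were added after the data were seen.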

Other observations

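Members below the array mean were not open to a call by the rule, and the largest difference among them in each comparison is given here, chosen after the values were seen. Eif2s3x, the X-linked gamma subunit of eIF2, read -0.742, -0.497 and -0.544 in COX-1 WT hippocampus and -0.874, -1.11 and -0.889 in COX-1 null hippocampus, a difference of -0.364 without overlap. In COX-2 null cortex it differed by -0.216, with overlap. Its near-identical Y-linked copy Eif2s3y can share signal with it on a cDNA array. In COX-1 null hippocampus Eif2s3y moved the other way, at -0.115, 0.132 and -0.087 against -0.139, -0.246 and -0.127 in WT, without overlap. The sex of the mice is not given, and its part in these differences was not tested. Eif4ebp1, which holds eIF4E away from eIF4G, differed by -0.276 in COX-1 null cortex, at -0.965, -1.14 and -0.943 against -0.683, -0.717 and -0.825. Rars, the arginyl-tRNA synthetase, differed by 0.260 in COX-2 null hippocampus, and Hars2, the mitochondrial histidyl-tRNA synthetase, by -0.292 in heterozygous hippocampus, both without overlap. Eif3h in heterozygous cortex differed by -0.277 with overlap, its arrays spanning -2.5 to -1.51. These values are given without a test.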
